A study of Homo sapiens with 4 samples.

Results

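Interferon-stimulated genes are genes whose transcription is switched on by interferons, the signalling proteins that cells release after sensing a virus or misplaced nucleic acid. The 43 genes described here were chosen by symbol from a list of well-known members of this programme, and each of them had a row in the RNA-seq table of 15562 genes. They were measured in H1975, a human lung adenocarcinoma cell line with the genotype given as WT, grown for 24 h either in normoxia or in hypoxia at 1% O2, 5% CO2 and 94% N2. Each condition had 1 RNA-seq library, and no interferon, virus or other agent is named for either of them. The comparison asked whether this antiviral programme differed between hypoxic and normoxic tumour cells. With 1 library per condition there is no spread between cultures to test against. Each ratio of hypoxia to normoxia is therefore given with the 95% interval that counting error alone allows, and this interval describes 2 libraries, not 2 conditions. It covers the counting error of reads only. Reads counted without molecular identifiers can be copies of the same molecule, so the interval may be too narrow for molecules.

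Type I and type III interferons act through cell surface receptors and the kinases JAK1 and TYK2, which phosphorylate transcription factors of the STAT family. STAT2 and IRF9 are subunits of the complex ISGF3, which binds the interferon-stimulated response element (ISRE) in promoters. The products sense viral RNA, degrade it, block its translation, or restrict virus entry and budding. Some carcinoma lines keep part of the programme on without added interferon.

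The promoter sequences were searched for the ISRE, which genes chosen as interferon-stimulated are likely to share through that choice. Windows of 250 bases before to 50 bases after an annotated start were taken from RefSeq (GRCh38.p14) for 36 of the 43 genes, 50 windows in all. IFIT2, IRF7, MX2, OAS2, OASL, TRIM22 and USP18 had none in the table. The ISRE core, GAAA then any 2 bases then GAAA, searched on both strands with overlapping matches allowed, was found in 22 of the 36 genes (61.1%), against 4.38% of all 27305 genes with a window. The longer form, the core followed by CT, was found in 13 of the 36 (36.1%), against 0.322% of all genes. The sequences below are 30-base stretches, written 5′ to 3′ along the gene's own strand, with the core match in capitals. A match on the opposite strand reads TTTC, any 2 bases, TTTC. They are shown for IFIT1 and IFI44L, with the lowest and the highest ratio among the genes with a match, and for BST2, ISG15 and OAS3 as further examples. DTX3L and PARP9 are shown because they share a match.
IFIT1, chr10:89392510-89392539, plus strand: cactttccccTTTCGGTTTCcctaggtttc
BST2, chr19:17405741-17405770, minus strand: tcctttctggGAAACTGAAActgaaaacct
ISG15, chr1:1013380-1013409, plus strand: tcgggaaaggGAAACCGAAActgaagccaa
OAS3, chr12:112938452-112938481, plus strand: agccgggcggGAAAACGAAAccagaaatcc
IFI44L, chr1:78620274-78620303, plus strand: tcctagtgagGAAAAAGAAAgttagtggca
IFI44L, chr1:78620365-78620394, plus strand: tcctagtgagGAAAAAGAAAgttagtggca
DTX3L, chr3:122564322-122564351, plus strand: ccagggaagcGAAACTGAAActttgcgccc
PARP9, chr3:122564322-122564351, minus strand: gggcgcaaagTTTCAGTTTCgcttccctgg

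The stretch in DTX3L and PARP9 is the same 30 bases read from opposite strands. The match begins 6 bases before the DTX3L start and 41 bases before a PARP9 start, and the RefSeq spans of both genes overlap by 447 bases. IFI44L carries the same 30-base stretch at 2 places, with the match 164 and 73 bases before its start. In IFIT1 the match shown lies 103 bases before the start and another lies 116 bases before it. BST2 and ISG15 each hold 2 overlapping matches, at 130 and 124 bases and at 113 and 107 bases before the start.

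STAT2, the member with the interval farthest above no change, had no core match in its window. The 250 bases before its start (chr12:56360108-56360357, minus strand) are shown in lower case for contrast.
STAT2: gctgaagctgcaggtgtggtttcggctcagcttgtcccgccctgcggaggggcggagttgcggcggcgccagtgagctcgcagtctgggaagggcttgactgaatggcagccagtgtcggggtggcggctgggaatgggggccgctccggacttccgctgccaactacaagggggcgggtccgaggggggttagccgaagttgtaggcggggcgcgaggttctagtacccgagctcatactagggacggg

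The other 13 genes with a window and no core match were ADAR, CMPK2, HERC6, IFI35, IRF1, IRF9, OAS1, SAMD9L, SP100, SP110, TRIM25, UBE2L6 and XAF1. A missing match says only that these letters are not in this window. The interferon gamma-activated element GAS, searched as TTCNNNGAA, was found in 10 of the 36 genes (27.8%) against 9.38% of all genes. The hypoxia response core ACGTG was found in 10 of the 36 (27.8%), against 24.9% of all genes. All 36 passed the count filter, and of the 10279 genes with a window that passed it 32.1% held ACGTG. For the ISRE core and GAS that share was 3.83% and 8.59%. Genes with the ISRE core had a median log2 ratio of 0.04 (range -0.16 to 0.47, 22 genes), and the 14 genes without it 0.16 (range -0.27 to 0.57). Here 0 means equal scaled counts in both libraries. The interval lay wholly above 0 for 5 of the 22 and for 6 of the 14, where 15.0% of all 12725 genes passing the count filter had such an interval. It lay wholly below 0 for 2 of the 22, IFIT1 and BST2, and for 0 of the 14, against 14.0% of all genes. The ranges of both sets overlap.

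**Figure D1:**
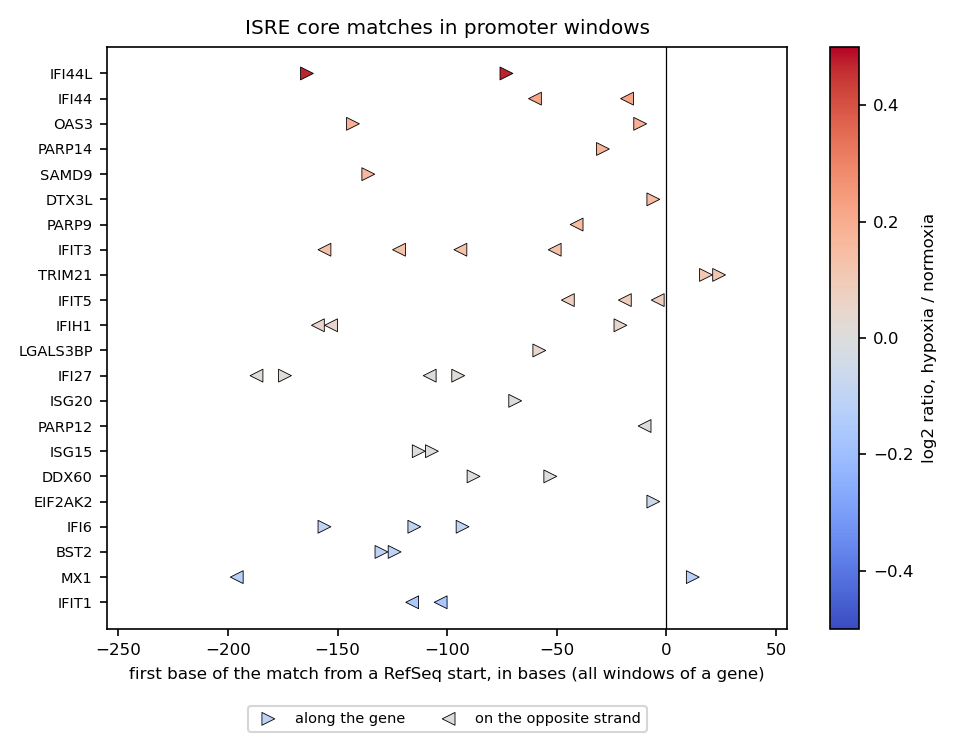
Position of each ISRE core match in the RefSeq promoter windows of the 22 genes that hold one, in bases from the annotated start, with every window of a gene drawn in 1 row. Colour gives the log2 ratio of hypoxia to normoxia, and genes are ordered by it from IFIT1 at -0.16 to IFI44L at 0.47. Nearly all matches lie before the start, and those of TRIM21 and 1 of MX1 lie after it.

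Counts were read for all 43 genes in both libraries. In normoxia the 43 genes ran from 0.157 to 344 FPKM (fragments per kilobase of gene length, scaled to library size), with a median of 8.45, close to the 7.73 of all genes that passed the count filter. Hypoxia gave 0.219 to 317 with a median of 8.10. BST2, or tetherin, which holds budding virions at the cell surface, was the highest per length with 344 FPKM in normoxia and 317 in hypoxia. LGALS3BP, a secreted glycoprotein that binds galectins, followed with 261 and 266. The ubiquitin-like protein ISG15 had 120 and 119, the mitochondrial protein IFI27 had 101 in both libraries, and the RNA-editing enzyme ADAR had 68.3 and 74.1. Of the 43 genes, 19 were above 10 FPKM in each library, and 5 (DDX60, IFI44L, SAMD9L, CMPK2 and TRIM22) were below 1 in both. The level thus spread 2192-fold across members in normoxia, and the order of the highest 5 was the same in both libraries.

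**Figure D2:**
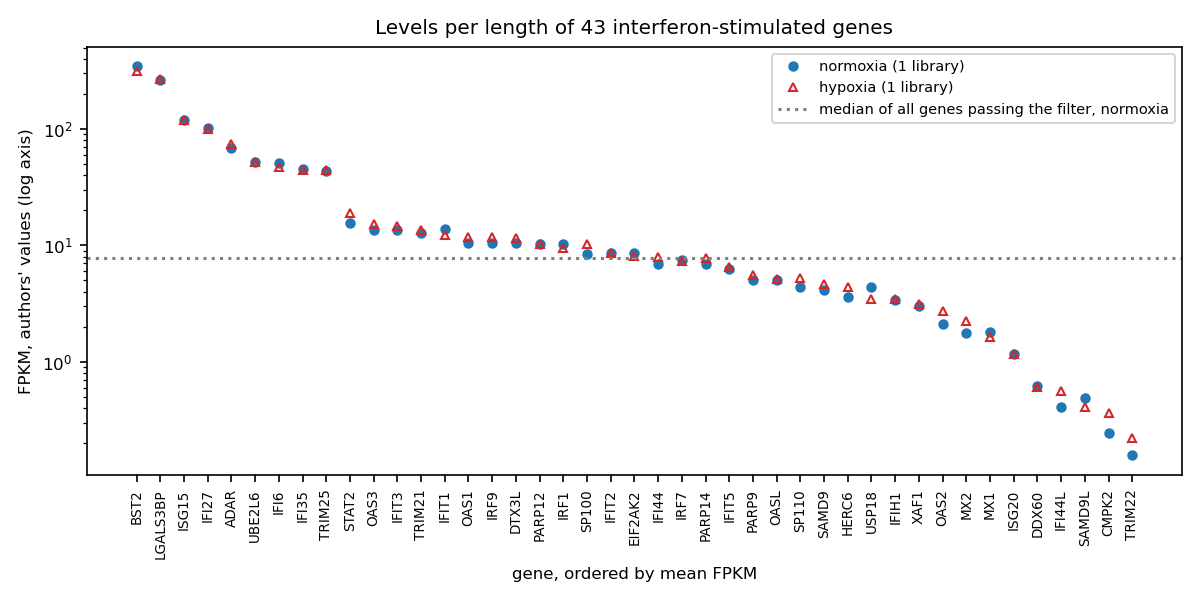
Level per length of the 43 genes in FPKM on a log axis, ordered by the mean of both libraries, with filled circles for normoxia and open triangles for hypoxia. The symbols of a gene nearly coincide along the range from BST2 (344 and 317) to TRIM22 (0.157 and 0.219), and the dotted line marks the median of all genes passing the filter in normoxia (7.73).

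Summed over the 43 genes, 52115 counts were read in normoxia and 57981 in hypoxia, or 0.295% and 0.306% of the libraries. LGALS3BP, ADAR, BST2, TRIM25 and OAS3 held 58.7% and 58.0% of these sums. Both libraries had 100 or more counts for 39 of the genes. TRIM22, with 8 counts in normoxia and 12 in hypoxia, did not reach 1 CPM (counts scaled to library size) in either library and is left out of the counts below, which cover 42 genes.

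No member differed 2-fold between the libraries. The rule was a ratio of 2 or more with an interval excluding 1, which 0.472% of the 12725 genes passing the filter met on the higher side and 0.440% on the lower side. The log2 ratio was above 0 for 30 of the 42 genes (71.4%), against 50.7% of all genes. The interval lay wholly above 0 for 13 of the 42 (31.0%), against 15.0% of all genes, and wholly below 0 for 3 (7.14%), against 14.0%. It held 0 for the remaining 26. The median log2 ratio was 0.05, a ratio of 1.03, against 0.0032 for all genes, and the quartiles of the members were -0.0032 and 0.19. For 36 of the 42 (85.7%) the interval lay within 1.5-fold either way, against 81.6% of all genes. It lay within 2-fold for 40 (95.2%), against 92.5%, and CMPK2 and IFI44L, with few counts, were the exceptions. Among genes that reached 100 counts in each library, the 1.5-fold share was 92.3% of members and 95.1% of all genes. The 2-fold share there was 100% and 99.8%. Such narrow intervals were thus not particular to the members. Where the interval lay above 0, the ratios ran from 1.09 (ADAR) to 1.31 (OAS2). In such bulk libraries fewer cells with a transcript and less of it per cell cannot be told apart.

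**Figure D3:**
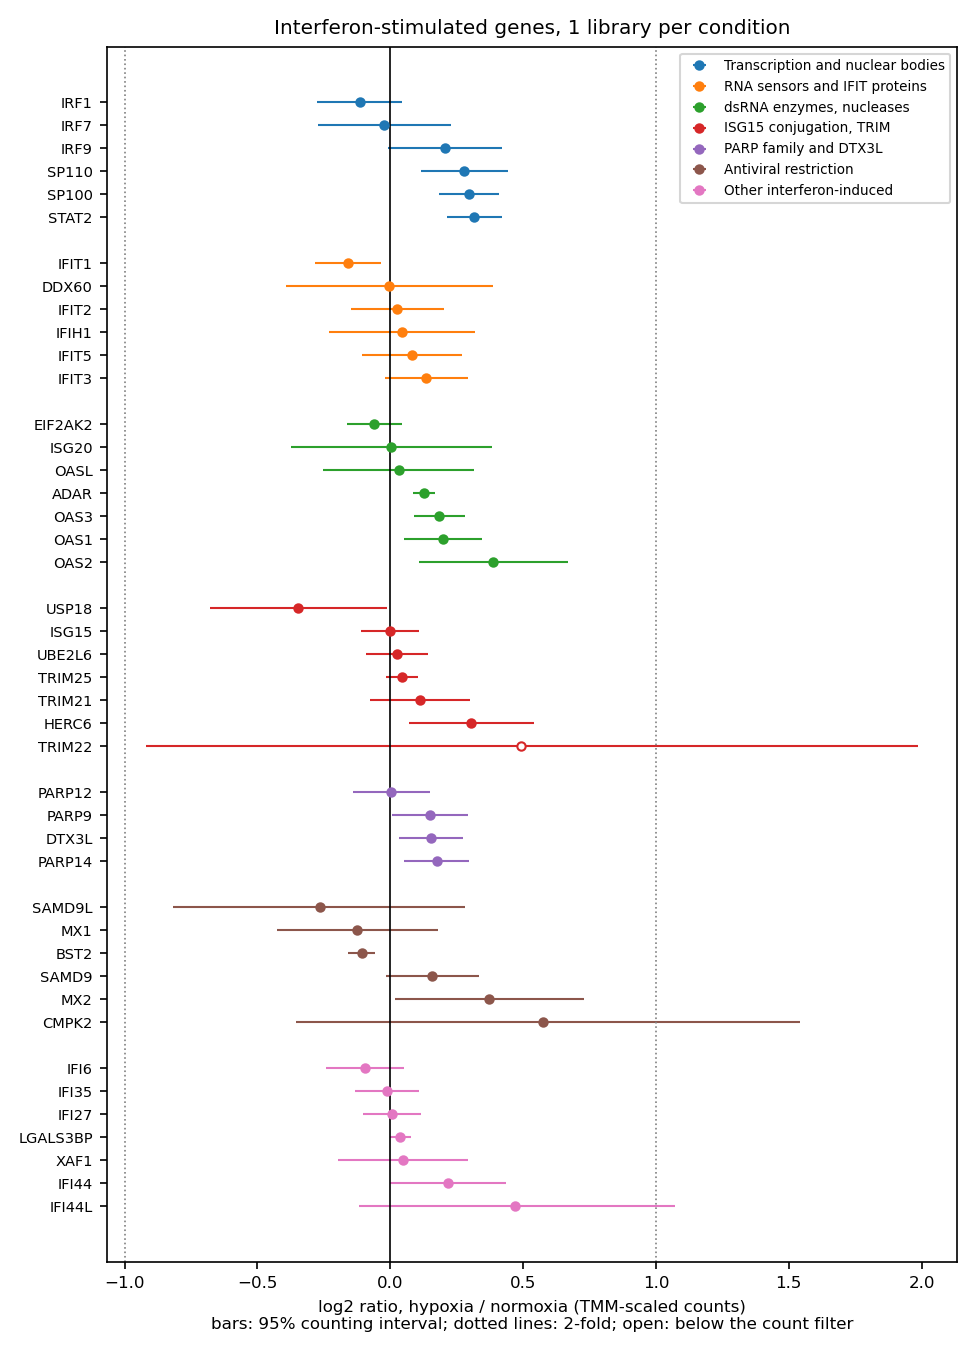
Log2 ratio of hypoxia to normoxia for each of the 43 genes, grouped by role, with bars for the 95% counting interval. STAT2, SP100 and SP110 stand to the right of 0 and USP18, IFIT1 and BST2 to the left. No point lies beyond the dotted 2-fold lines, and the widest bar belongs to TRIM22 (open, below the filter).

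Among the transcription factors and nuclear body proteins, 4 of 6 had a ratio above 1, and the median log2 ratio was 0.24. STAT2, SP100 and SP110 had an interval wholly above 0. For this role and those below, the shares of all genes were 15.0% with an interval wholly above 0 and 14.0% wholly below. STAT2, a subunit of ISGF3, had 1291 counts in normoxia and 1715 in hypoxia, a log2 ratio of 0.32 (0.21 to 0.42). Its gene lies on GRCh38.p14 chromosome 12 from 56341597 to 56360107. IRF9, the DNA-binding subunit of ISGF3, had 326 and 401 counts, at 0.21 (-0.01 to 0.42), so its interval just held 0. SP100, a scaffold protein of PML nuclear bodies, had 1134 and 1485 counts, at 0.30 (0.18 to 0.41). Its relative SP110 had 537 and 695, at 0.28 (0.11 to 0.44). IRF7, a factor that turns on interferon genes, had 260 and 273 counts, at -0.02 (-0.27 to 0.23). IRF1, which also answers to interferon gamma, had 649 and 639, at -0.12 (-0.27 to 0.04).

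The sensors of viral RNA and the IFIT proteins, which bind foreign RNA ends and block translation, had ratios near 1. Of these 6 genes 4 had a ratio above 1, none an interval wholly above 0 and 1 an interval wholly below it, and the median was 0.03. IFIT1 had 1092 counts in normoxia and 1042 in hypoxia, at -0.16 (-0.28 to -0.04). Its partner IFIT3 had 618 and 724, at 0.14 (-0.02 to 0.29), and the intervals of these neighbouring genes did not overlap. IFIT2 had 512 and 556 counts and IFIT5 had 442 and 499, at 0.03 and 0.08, with intervals that held 0. IFIH1, also known as MDA5, which senses long double-stranded RNA, had 212 and 233, at 0.04 (-0.23 to 0.32). The helicase DDX60 had 110 and 117, with a ratio of 0.997 and an interval of -0.39 to 0.39. The RefSeq spans of all 4 IFIT genes overlap the span of the lysosomal lipase LIPA, which had 8235 and 9522 counts, at 0.12 (0.07 to 0.16). The sources used here do not say if strand was used in counting, so reads of LIPA and the IFIT genes may not be fully separated.

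The role of double-stranded RNA enzymes and nucleases, with OASL and the exonuclease ISG20 counted in it, held 4 of the 13 members whose interval lay above 0. That was 57.1% of this role, against 15.0% of all genes. Of these 7 genes 6 had a ratio above 1 and none an interval wholly below 0, and the median was 0.13. The OAS proteins make 2-5A, the messenger that activates RNase L. OAS2 had 185 counts in normoxia and 258 in hypoxia, at 0.39 (0.11 to 0.67). OAS1 had 694 and 849, at 0.20 (0.05 to 0.34), and OAS3 had 1588 and 1925, at 0.18 (0.09 to 0.28). These 3 lie side by side on chromosome 12, with about 5.25 and 5.27 kb between them, and had overlapping intervals. OASL, the relative that lacks this enzyme activity, lies elsewhere on the chromosome and had 199 and 217 counts, at 0.03 (-0.25 to 0.32). ADAR, which edits adenosine to inosine in double-stranded RNA, had 8425 and 9818 counts, at 0.13 (0.09 to 0.17). The kinase EIF2AK2 (PKR), which stops translation on sensing double-stranded RNA, had 1497 and 1531, at -0.06 (-0.16 to 0.04). The exonuclease ISG20 had 115 and 123, at 0.0043 (-0.37 to 0.38).

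The members in the ISG15 conjugation system had ratios on both sides of 1. ISG15 itself had 1347 counts in normoxia and 1435 in hypoxia, a ratio of 0.999 with a log2 interval of -0.11 to 0.11. Its conjugating enzyme UBE2L6 had 1186 and 1287, at 0.03 (-0.09 to 0.14). HERC6, a ligase of the HERC family, had 265 and 349, at 0.30 (0.07 to 0.54). Outside the members, HERC5 of the same family had 265 and 264, at -0.10 (-0.35 to 0.15). UBA7, also outside them, had 1037 and 1048, at -0.08 (-0.20 to 0.05). USP18, the protease that removes ISG15 and also restrains the interferon receptor, had 168 and 141, at -0.35 (-0.68 to -0.01), the lowest of the 42. USP18 has a near-identical copy, USP41, which had 2 and 0 counts, and reads that match both may have been set aside, so its value is uncertain. Of the TRIM ubiquitin ligases, TRIM25, which activates the sensor RIG-I, had 4371 and 4804 counts, at 0.04 (-0.02 to 0.10), and the antibody receptor TRIM21 had 432 and 498, at 0.11 (-0.08 to 0.30). Over the 6 genes of this role that passed the filter the median was 0.03, with 1 interval above 0 and 1 below.

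All 4 genes of the PARP group, ADP-ribosyltransferases and their partner DTX3L, had ratios above 1 with the scaling used here, with a median of 0.15, although that of PARP12 was just below 1 with total counts, FPKM or the length trend removed. PARP9 and the ubiquitin ligase DTX3L form a heterodimer and share the promoter stretch printed above. PARP9 had 726 counts in normoxia and 859 in hypoxia, at 0.15 (0.01 to 0.29), an interval that held 0 with total counts, FPKM or the length trend removed. DTX3L had 1061 and 1258, also at 0.15 (0.03 to 0.27). PARP14, 106 kb away on chromosome 3, had 1012 and 1218, at 0.17 (0.05 to 0.30). PARP12, on chromosome 7, had 748 and 800, a ratio of 1.00 with a log2 interval of -0.14 to 0.15. The interval was thus above 0 for 3 of the 4, against 15.0% of all genes. These are long genes, with a median length of 6967.5 bases, and 22.9% of all genes of 6000 bases or more had such an interval. The spans of PARP9 and DTX3L overlap, so reads from the shared 447 bases may have been assigned to neither or to the wrong gene.

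Restriction factors had ratios on both sides of 1, with a median of 0.03 over 6 genes, 3 of them above 0. MX2, which blocks nuclear import of lentiviral genomes, had 116 counts in normoxia and 160 in hypoxia, at 0.37 (0.02 to 0.73). Its neighbour MX1, which blocks influenza virus and lies 11.2 kb away, had 185 and 181, at -0.12 (-0.43 to 0.18). The paralogues SAMD9 (499 and 594 counts, at 0.16, -0.02 to 0.33) and SAMD9L (62 and 55, at -0.27, -0.82 to 0.28) also had point values on opposite sides of 0. In both pairs the intervals overlapped. BST2 had 6078 and 6015 counts, at -0.11 (-0.16 to -0.06). With the trend of the ratios with gene length removed it was at -0.05 and its interval held 0. CMPK2, a mitochondrial nucleotide kinase, had the highest ratio of the 42 on 17 and 27 counts, at 0.57 (-0.35 to 1.54), so no difference was detectable at this depth.

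Of the 7 remaining interferon-induced genes 5 had a ratio above 1, the interval of IFI44 alone excluded 0, and the median was 0.04. LGALS3BP, with the narrowest interval of all members, had 10133 counts in normoxia and 11091 in hypoxia, at 0.04 (-0.0014 to 0.08). IFI27 had 1328 and 1424, at 0.0080 (-0.10 to 0.12), and IFI35 had 1109 and 1173, at -0.01 (-0.13 to 0.11). IFI6, which protects cells from apoptosis, had 754 and 753, at -0.09 (-0.24 to 0.05). XAF1, which promotes apoptosis, had 265 and 292, at 0.05 (-0.20 to 0.29). IFI44 had 317 and 393, at 0.22, with a lower bound that just cleared 0 and an upper bound of 0.44. That interval held 0 with total counts, upper quartile scaling and FPKM. Its neighbour IFI44L, whose promoter holds the repeated stretch, had 42 and 62, at 0.47 (-0.12 to 1.07).

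The pathway around these genes was read from lists of other genes. Of 10 interferon genes listed, only IFNE had a row, with 5 counts in each library, below the filter, and the other 9 were not analysed here. All 10 genes listed for the receptors and the signalling below them passed the filter, 8 of them above a ratio of 1, and their median was 0.10. Of the 10, 4 had an interval wholly above 0, against 15.0% of all genes, and none had one wholly below, against 14.0%. The interferon gamma receptor subunit IFNGR1 was highest, with 622 counts in normoxia and 753 in hypoxia, at 0.18 (0.03 to 0.34). The type III receptor subunit IFNLR1 was lowest, with 74 and 73, at -0.11 (-0.60 to 0.37). The type I receptor subunit IFNAR1 was at 0.16 (0.01 to 0.31) and the kinase JAK1 at 0.12 (0.04 to 0.20). The lower bound of IFNAR1, 0.0072, does not clear 0 with total counts (a shift of -0.0098) or with its length trend of 0.03 removed. With that trend removed the intervals of IFNGR2 and IL10RB, which held 0, lie above it. The genes that sense nucleic acid upstream of interferon divided evenly, with 5 of 10 above 0 and a median of -0.0030. The mitochondrial adaptor MAVS was highest on 8724 and 10782 counts, at 0.21 (0.17 to 0.25). DHX58 (LGP2), a relative of MDA5, was lowest on 362 and 328, at -0.24 (-0.46 to -0.02). IRF3, which starts interferon transcription, was at -0.13 (-0.24 to -0.03). Both upper bounds lay above the length trend of these genes (-0.03 and -0.05), so neither interval excludes 0 with it removed. The interval of MYD88, which held 0, lies above it with the trend removed.

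A further 39 interferon-stimulated genes outside the members were listed, of which 38 had a row and 34 passed the filter. Their median was 0.06, with 22 ratios above 1. An interval wholly above 0 was found for 11 of the 34 (32.4%), against 15.0% of all genes. It lay wholly below 0 for 3 (8.82%), PSMB9, LY6E and IFITM2, against 14.0%. Of the 11, TDRD7, APOL1, IFITM1 and IFITM3 are below 4000 bases. The others exceed 6000 bases, where 22.9% of all genes had such an interval. For HELZ2, TRIM14 and PML the lower bound (0.02, 0.02 and 0.0037) lay below the length trend (0.06, 0.06 and 0.03). PSMB9, LY6E and IFITM2 are below 1500 bases, where 25.2% of all genes had an interval below 0. Their upper bounds (-0.01, -0.04 and -0.01) lay above the trend there (-0.06), so these calls do not hold with it removed. TDRD7 was highest with 239 counts in normoxia and 329 in hypoxia, at 0.37 (0.12 to 0.61), and the guanylate-binding protein GBP1 was lowest with 164 and 151, at -0.21 (-0.54 to 0.12). The antiviral enzyme RSAD2 (viperin) had 22 and 28, at 0.26 (-0.60 to 1.13), and the chemokine CXCL10 had 0 and 1. Of 7 negative regulators the interval of SOCS3 alone excluded 0, at 0.15 (0.03 to 0.28), while SOCS1 was lowest at -0.14 (-0.58 to 0.30) and the median was 0.01. No gene of these lists passed the 2-fold rule.

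**Figure D4:**
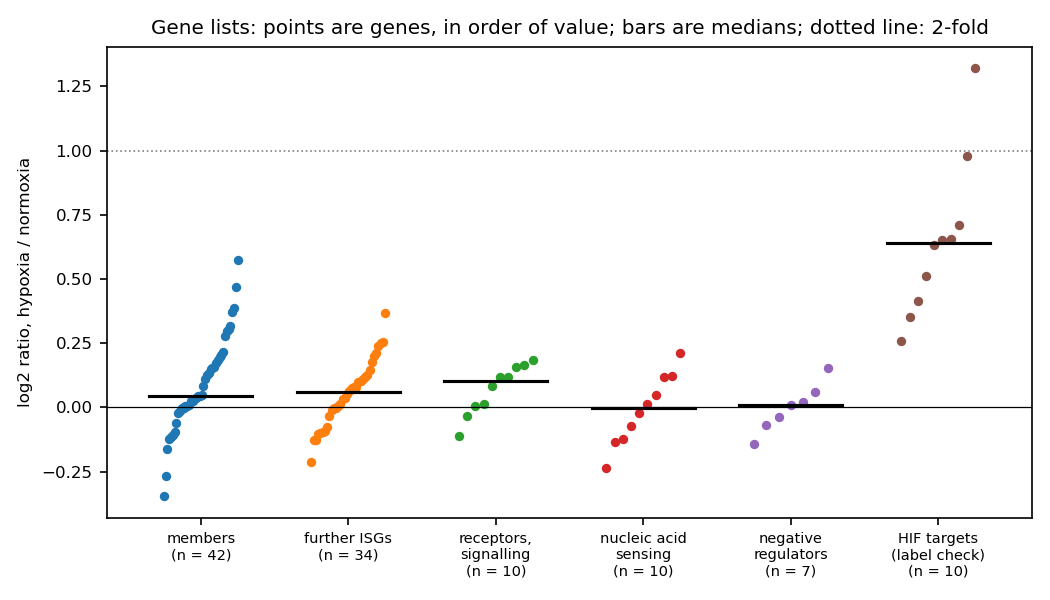
Log2 ratios of the genes passing the filter in each list, as points in order of value, with a bar at the median. The medians of the members (0.05), further interferon-stimulated genes (0.06) and receptor and signalling genes (0.10) sit just above 0. The median of the HIF targets used to check the hypoxia label (0.64) lies well above these medians. The points overlap, with the HIF target ADM at 0.26 and the member CMPK2 at 0.57.

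The label of the hypoxic library was checked on 10 HIF targets, of which all had a ratio above 1 and 9 an interval wholly above 0. They ran from ADM at 0.26 (-0.10 to 0.62) to NDRG1 at 1.32 (1.25 to 1.40), with a median of 0.64. The tissue label was checked on 6 epithelial markers, whose summed level was 9083 CPM in normoxia and 8206 in hypoxia, and 4 of the 6 had an interval wholly below 0. KRT7 was lowest, at -0.42 (-0.45 to -0.40), while KRT8, with 63886 and 63715 counts, was at -0.10 (-0.11 to -0.08). Leukocyte markers, which an admixture of interferon-producing cells would bring, summed to 133 and 128 CPM over 4 genes with a row, nearly all of it CD74 and CD14. CD14 was at -0.44 (-0.66 to -0.23) and CD74 at 0.03 (-0.06 to 0.12). The defining leukocyte marker PTPRC had 0 and 2 counts. The only plasmacytoid dendritic marker with a row, TCF4, had 0 and 2. Endothelial markers summed to 5.82 and 5.56 CPM, with TIE1 and VWF at 0 counts in normoxia, and fibroblast markers to 115 and 121 CPM. Most of the fibroblast sum was COL1A1, with 89.2 and 95.3 CPM. COL3A1 passed the 2-fold rule on 25 and 60 counts, at 1.17 (0.47 to 1.91), and COL1A2 was at -0.35 (-0.62 to -0.09). The part of these markers in the members' ratios was not tested.

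Gene length moved with the ratios in these libraries, and therefore with some members. The median log2 ratio of all genes ran from -0.06 below 1500 bases to 0.05 at 6000 bases or more. Of the 13 members with an interval above 0, 10 were among the 22 members of 4000 bases or more and 3 among the 20 shorter ones. In the longest band, 6 of 10 members had an interval above 0, against 22.9% of all genes of that length. Between 4000 and 6000 bases it was 4 of 12, against 15.4%, and between 2500 and 4000 bases 3 of 8, against 13.1%. It was 0 of 6 members between 1500 and 2500 bases, against 8.27%, and 0 of 6 below 1500 bases, against 7.24%. Across the 42 genes Pearson's r between log2 length and log2 ratio was 0.26 and Spearman's rho 0.25, and across all 12725 genes they were 0.13 and 0.21, given as descriptions over genes of the same 2 libraries. With the smoothed length trend removed, the interval lay above 0 for 15 of the 42 members (all genes 13.8%) and below 0 for 2 (13.1%), with a median of 0.07. STAT2 was then at 0.30, SP100 at 0.26, OAS2 at 0.37 and IFIT1 at -0.18. BST2, among the shortest members at 1001 bases, went from -0.11 to -0.05 with an interval of -0.10 to 0.0063, and USP18 to -0.31 (-0.64 to 0.03), so neither excluded 0. PARP9 also lost its call, at 0.11 (-0.04 to 0.25).

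Depth sets which differences could be seen. An interval excludes 0 more often where a gene has more counts, so the members were also set beside genes of like level. At a mean of 30 to 100 CPM, 8 of 18 members had an interval above 0, against 16.2% of all genes there. At 10 to 30 CPM it was 3 of 13, against 10.9%, and at 100 CPM or more 1 of 4, against 26.3%. Below 10 CPM it was 1 of 7, against 8.25%. Averaged over the members' own bands, all genes had 14.2% above by level and 14.6% by length, against 31.0% of the members.

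**Figure D5:**
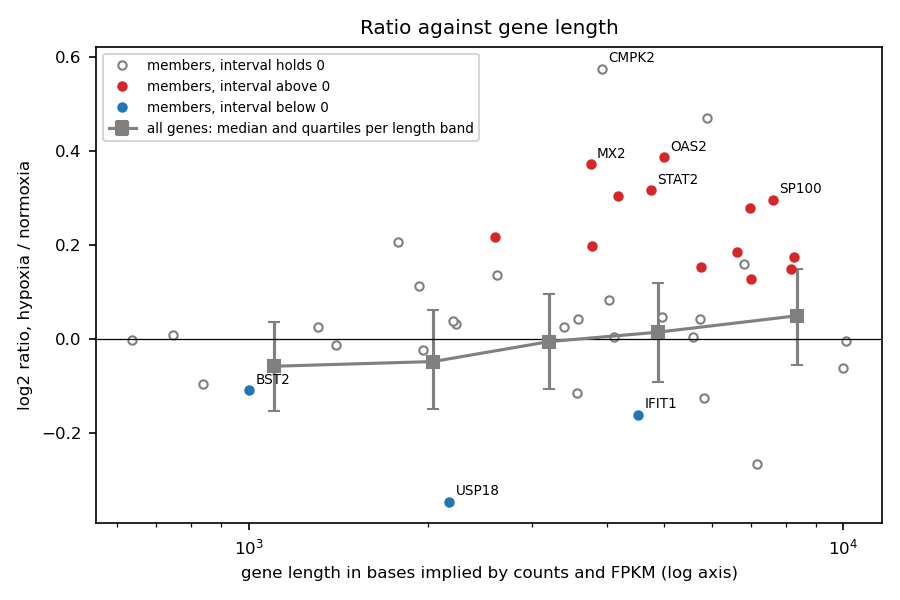
Log2 ratio against gene length in bases on a log axis for the 42 genes passing the filter, with grey squares and bars for the median and quartiles of all genes in 5 length bands. Filled red points are members with an interval above 0, filled blue ones below. Of the 13 red points 10 lie at 4000 bases or more.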

How the data were processed

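RNA-seq counts per gene and FPKM were deposited by the authors for H1975 in normoxia and in hypoxia, with 1 library each, and the miRNA tables were not used here. Per the submitters' processing notes, Trimmomatic, HISAT2, Cufflinks, HTSeq and Bowtie were used with GRCh38, with no versions or roles, and per the labels' protocols the libraries came from a stranded mRNA kit. The deposited counts are whole numbers that sum to 17643836 in normoxia and 18943320 in hypoxia. The FPKM that the authors deposited imply the same gene length in both libraries within 0.1% for 100% of 14542 genes counted in both.

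Counts were scaled over the whole table by TMM in edgeR 4.0.16 (R 4.3.3). Ratios with exact conditional (Clopper-Pearson) 95% intervals were computed with scipy 1.17.1 for genes at 1 CPM or more in at least 1 library, and tested on simulated data. No p-value was computed. DESeq2 1.42.0 gave 1 alternative scaling only. Length was taken from counts and FPKM, and its trend from a lowess fit with a span of 0.3 (statsmodels 0.14.6).

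The members and lists were chosen with earlier results of these data known. Genes named in full were those past 2-fold, the 10 with an interval bound farthest from 0, the extremes of each role and list, and the 5 highest by FPKM; further members are given with their counts. The longer ISRE form and the ACGTG core were added after the first values were seen. Promoter windows and coordinates came from RefSeq tables of GRCh38.p14, matched by symbol and Entrez identifier, and all 43 genes matched. A gene of the receptor and signalling list and another of a marker list are counted there and not reported here by name.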

Additional observations from a re-analysis of the deposited data

How the results depend on the processing

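Over 11 alternative settings, 2 of them added after seeing the data, the number of members past the size rule stayed at 0 in each direction. The median log2 ratio ran from 0.03 (FPKM with a pseudocount of 1) to 0.07 (length trend removed). The size rule was 2-fold, or in a separate setting an interval wholly beyond 1.5-fold. With log2 ratios from -0.35 to 0.57, the settings changed values too little for a member to reach 2-fold, so that count was fixed by construction. The number with an interval above 0 (13) was 11 with total counts and with FPKM at a pseudocount of 1 or 0.1, 12 with upper quartile scaling, 10 without overlapping or duplicated genes and 15 with the length trend removed. In the FPKM settings the ratios and bounds were taken from total counts, so their signs and calls match those of total counts by construction. The calls lost were IFI44 with total counts, FPKM and upper quartile, PARP9 with total counts, FPKM and the length trend removed, and BST2 and USP18 with the length trend removed. That last setting gained EIF2AK2, IFIT3, IRF9 and LGALS3BP. The number with an interval below 0 (3) was 2 with the length trend removed and 1 without the members that overlap a protein-coding gene or, as USP18, have a near-identical copy; this drops IFIT1 and USP18 by construction. The number of members with a ratio above 1 (30) was 27 with total counts and FPKM. Settings that only change which genes are kept repeat the main single-gene values. Each alternative scaling shifts all genes alike, by -0.0098 log2 units with total counts and by less with the others. Most single-gene values could therefore not leave their counting interval, by construction. Of 404 single-gene values 1 left it, BST2 at -0.05 with the length trend removed. The sign changed in 14 of them, for IFI27, IFI35, IRF7, ISG15, ISG20 and PARP12, whose intervals all held 0, and for no gene with an interval that excluded 0. No replicate could be left out. No paired analysis was possible because each condition has 1 library. At these depths the interval of a member was 0.32 log2 units wide at the median, 0.08 for LGALS3BP and 1.90 for CMPK2.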

Other observations

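The gene annotation that the authors deposited beside the counts offers a wider view of the same programme, looked at after the member values were seen. The term "defense response to virus" was carried by 27 of the 43 members (62.8%) and by 1.02% of all genes in the table. Without the members, 111 genes of the term passed the filter, 60 of them had a ratio above 1, 26 had an interval wholly above 0 (23.4%, all genes 15.0%) and 13 wholly below (11.7%, all genes 14.0%), with a median log2 ratio of 0.02. The term "type I interferon signaling pathway" was carried by 22 members (51.2%). Its 26 other genes passing the filter had a median of 0.0074, with 7 intervals above 0 (26.9%) and 8 below (30.8%), both shares above those of all genes.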
